A study of Mus musculus with 4 samples.

Results

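Imiquimod is an agonist of Toll-like receptor 7, and the comparison described here set skin labelled IMQ, the usual abbreviation of imiquimod, against skin without it in mice that had all received IL-17A. It was 1 array of IL-17A mini-circle skin with IMQ against 1 array of IL-17A mini-circle skin without, over the annotated probes above background on at least 1 of these 2 arrays. These were 18619 probes with a single gene symbol, read as 12109 genes by 1 probe each, of 12729 genes measurable on the 4 arrays of the series. The groups were IL-17A with IMQ, IL-17A without IMQ, GFP with IMQ and GFP without IMQ. All mice were C57BL/6J aged 8 to 12 weeks and carried a mini-circle, a small DNA ring from which cells express the insert, encoding IL-17A or, as control, GFP. Both groups of the comparison therefore carry the IL-17A mini-circle, and IMQ alone differs between them in the labels. Each array held RNA pooled from 6 mice, so there is no replicate, no test and no measure of the spread between mice, and every value below describes these pools. The dose and schedule of IMQ were not given in the sources used here.

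Toll-like receptor 7 sits in the endosomes of immune cells, above all plasmacytoid dendritic cells and macrophages, and signals through MyD88 to NF-kappaB and to the interferon regulatory factor Irf7. IL-17A is a T cell cytokine that acts on keratinocytes through the receptor pair Il17ra and Il17rc and the adaptor Act1, and it raises antimicrobial proteins, neutrophil-attracting chemokines and epidermal thickening. Imiquimod on mouse skin is widely used as a model of psoriasis-like inflammation, in which both pathways take part. Skin also holds hair follicles, whose shaft and root sheath keratins are made in the growth phase of the hair cycle, so hair genes are described beside the inflammatory ones.

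Signals below are deposited background-subtracted intensities of 1 probe per gene and are not comparable between genes. Differences are IL-17A with IMQ minus IL-17A without IMQ on the log2 scale, taken after normexp background correction (offset 50) and quantile scaling. Folds are on that scale, which understates the change of dim genes. The detection limits were 11.8 with IMQ and 12.6 without, and 11532 and 11523 genes lay above them. Epidermal markers were bright on both arrays. The basal keratin Krt14 read 35225 with IMQ and 35097 without, the suprabasal keratin Krt10 33483 with IMQ and 35117 without, and Lor, loricrin of the cornified envelope, 27098 with IMQ and 32684 without. The Il17a probe read 14.4 with IMQ and 7.98 without in IL-17A skin, above the detection limit with IMQ only. It is unclear if the vector's transcript carries the probed stretch, and the labels were not checked with it. Where 2 signals are given for a skin without further words, they are with and without IMQ. Tlr7 itself read 74.4 with IMQ and 89.4 without, against 105 and 248 in GFP skin with and without IMQ.

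The 2 arrays differed in few genes, and Serpinb3a, Sprr2 genes and calprotectin genes led the higher side. Of 12109 genes, 21 (0.173%) were higher with IMQ by 2-fold or more and 10 (0.0826%) were lower by as much, and all 31 were above the limit on both arrays. Higher were the calprotectin genes S100a8 and S100a9, the acute-phase genes Saa1 and Saa3, the siderophore binder Lcn2, 4 small proline-rich genes and the mediators Il1b, Ccl3 and Ccl4. Lower were, among others, the skin chemokine Ccl27a, the metabolic kinase Pdk4 and the hepcidin gene Hamp2. At 1.5-fold, 1.02% of genes were higher and 0.223% lower. A count of 0 members past a threshold in a list below is near these shares. Over all genes the median difference was -0.0035, the standard deviation of the differences was 0.201, and the values ran from -1.27 to 1.82. In GFP skin, IMQ against none gave 53 of 12129 genes (0.437%) past 2-fold on the higher side and 36 (0.297%) on the lower, with a standard deviation of 0.300.

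**Figure D1:**
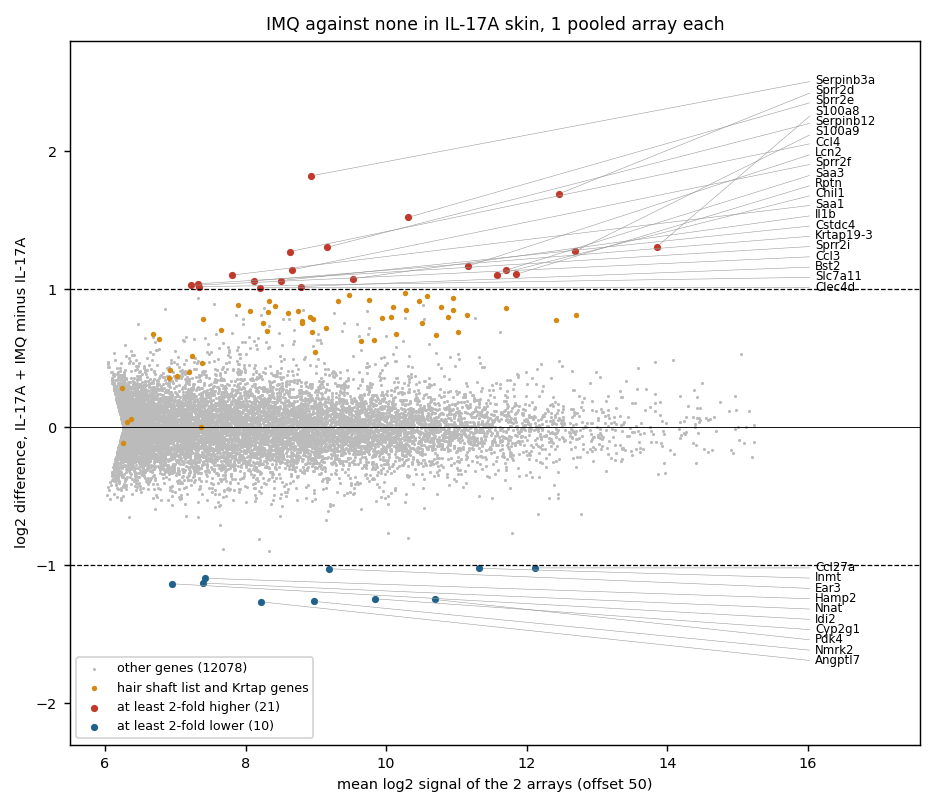
Log2 difference (IL-17A with IMQ minus IL-17A without IMQ) against mean log2 signal, 1 point for each of 12109 genes, with lines at 2-fold. The 21 genes past 2-fold on the higher side and the 10 on the lower are few beside the bulk of genes near 0, and hair genes form a band whose quartiles are 0.638 and 0.855.

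The start regions of 4 higher genes are shown as examples, 1 each from the calprotectin, acute-phase, small proline-rich and interferon genes. They are RefSeq windows of build GRCm38.p6 from 250 bases before to 50 after the annotated start, written 5′ to 3′ on the gene's strand. Capitals mark matches on either strand to the C/EBP core TTNNGNAA, the AP-1 site TGANTCA, the STAT site TTCNNNGAA, the interferon-stimulated response element (TTTC, any 2 bases, TTTC), or the NF-kappaB consensus. S100a8 lies at chr3:90668821-90669120 on the plus strand, Saa3 at chr7:46715627-46715926 on the minus strand, Sprr2d at chr3:92338890-92339189 on the plus strand and Bst2 at chr8:71537423-71537722 on the minus strand.
S100a8: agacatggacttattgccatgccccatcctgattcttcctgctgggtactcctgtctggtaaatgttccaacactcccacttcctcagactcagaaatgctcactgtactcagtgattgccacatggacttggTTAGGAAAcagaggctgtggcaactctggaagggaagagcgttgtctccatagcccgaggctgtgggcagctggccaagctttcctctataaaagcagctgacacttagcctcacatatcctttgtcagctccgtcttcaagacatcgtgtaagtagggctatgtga
Saa3: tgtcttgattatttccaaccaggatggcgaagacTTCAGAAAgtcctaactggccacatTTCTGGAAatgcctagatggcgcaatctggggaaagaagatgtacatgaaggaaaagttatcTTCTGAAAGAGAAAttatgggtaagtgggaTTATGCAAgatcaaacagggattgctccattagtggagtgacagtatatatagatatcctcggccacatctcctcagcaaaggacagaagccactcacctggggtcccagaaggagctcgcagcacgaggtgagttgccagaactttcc
Sprr2d: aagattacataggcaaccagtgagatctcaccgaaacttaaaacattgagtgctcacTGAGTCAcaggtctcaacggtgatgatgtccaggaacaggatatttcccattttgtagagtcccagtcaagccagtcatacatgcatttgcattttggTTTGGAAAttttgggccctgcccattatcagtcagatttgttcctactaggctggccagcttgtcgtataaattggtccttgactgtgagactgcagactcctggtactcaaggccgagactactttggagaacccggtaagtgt
Bst2: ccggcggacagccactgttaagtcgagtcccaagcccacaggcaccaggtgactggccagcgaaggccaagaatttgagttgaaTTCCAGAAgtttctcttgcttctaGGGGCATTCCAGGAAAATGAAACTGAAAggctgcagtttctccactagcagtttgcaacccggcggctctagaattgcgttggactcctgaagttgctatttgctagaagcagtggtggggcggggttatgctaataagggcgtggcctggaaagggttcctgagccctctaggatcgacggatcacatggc
The S100a8 window held 1 C/EBP match, at bases 134 to 141. The Saa3 window held 4, of which the one at bases 122 to 129 overlaps a response element match. Sprr2d held an AP-1 match at bases 58 to 64 and a C/EBP match at 156 to 163. In Bst2, NF-kappaB, STAT and 2 response element matches follow in that order between bases 109 and 136, each overlapping the next. A C/EBP match lies at 85 to 92.

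Windows were found for 20 of the 21 higher and 8 of the 10 lower genes. As 2 genes have several, these were 21 and 10 windows. A gene counted below if any of its windows matched, while the shares are of windows. The C/EBP core, which is short and loose, was present for 19 of 20 higher and 5 of 8 lower genes. Counted by window these were 20 of 21 and 7 of 10, against 40.7% of all 32851 windows. AP-1 was found for 6 of 20 and 2 of 8, against 7.81% of windows. Of these 6, Sprr2d, Sprr2e, Sprr2f and Sprr2i belong to a family of near copies, and the Sprr2d and Sprr2e windows share 264 of 300 bases. The same Sprr2 genes are among the 19 with the C/EBP core. The response element was found for Bst2, Clec4d and Saa3 and for 0 of 8 lower genes, against 3.44% of windows. STAT was found for 4 of 20 and 1 of 8 (8.3%), and NF-kappaB for Bst2 and Chil1 among higher and Ccl27a among lower genes (4.51%). A match describes letters in the window and does not show that a factor binds there.

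Calprotectin, the S100a8/S100a9 dimer made by neutrophils and stressed keratinocytes, withholds zinc and manganese from microbes. S100a8 read 21448 with IMQ and 9773 without in IL-17A skin, against 974 and 1011 in GFP skin with and without IMQ. S100a9 read 9479 and 4357 in IL-17A skin, against 532 and 546 in GFP skin. The folds in IL-17A skin were 2.47 and 2.42, while in GFP skin the log2 differences were 0.13 and 0.14. For both genes the array with IL-17A and IMQ was the highest of the 4, and the GFP arrays were nearly level with each other.

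Lcn2, lipocalin 2, starves bacteria of iron by binding their siderophores. It read 3228 with IMQ and 1547 without in IL-17A skin, a 2.25-fold difference, and 522 and 293 in GFP skin. Saa3, a serum amyloid A gene of the acute-phase response, was 2.20-fold higher at 4754 and 2326, against 1492 and 1929.9 in GFP skin. Saa1 was 2.15-fold higher at 258 and 93.4, with 12.1 and 7.83 in GFP skin, and its second probe, which was dim, was 1.16-fold higher. With the probes averaged, Saa1 came under 2-fold at 0.66 on the log2 scale. The Saa genes are close relatives, so their probes may share signal. Chil1, a chitinase-like lectin, was 2.15-fold higher at 4252 with IMQ and 2132 without. Lcn2 and Chil1 also differed in GFP skin by 0.89 and 0.95 on the log2 scale, whereas Saa3 stood at -0.17 there.

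S100a8, S100a9, Lcn2, Saa3, Chil1 and Saa1 were the 6 members past 2-fold among 22 measured IL-17-responsive antimicrobial and cytokine genes, with 0 past it on the lower side. The shares over all genes were 0.173% and 0.0826%. The median of the list was 0.61 against -0.0035 over all genes, and 19 of the 22 lay above 0. At 1.5-fold, 11 of 22 were higher, where 1.02% of all genes were. They included the neutrophil chemokines Cxcl2 (187 with IMQ and 75.7 without) and Cxcl1 (1020.4 and 648) and the protease inhibitor Slpi (1831 and 1133). The cytokines Il6 (63.5 with IMQ and 18.0 without) and Il19 (107 and 48.6) were dimmer but also past 1.5-fold. The beta-defensin Defb14 was nearer to level at 2964 with IMQ and 2376 without, and Ccl20, the chemokine of Ccr6-bearing cells, stood at 34.8 and 41.9. In GFP skin the median of the list was 0.15 over 18 members, 3 of which were higher by 1.5-fold, where 1.62% of all genes were.

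Of 18 genes of the IL-17 receptor pathway, 0 were 1.5-fold apart, which is near the share over all genes, and their median was 0.06. The highest was 0.53 for Nfkbiz, an NF-kappaB cofactor of the IL-17A response, at 1225 with IMQ and 903 without. The receptor chain Il17rc stood at 1802 and 2445 and the adaptor Act1, gene Traf3ip2, at 159 and 212, differences of -0.31 and -0.23.

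Genes of the epidermal hyperplasia and stress list included 4 Sprr2 probes and Serpinb3a past 2-fold. Serpinb3a, an inhibitor of proteases, differed most of the 12109 genes as read by the brightest probe, at 3.53-fold: it read 836 with IMQ and 206 without in IL-17A skin, against 78.4 and 81.0 in GFP skin. A dimmer Serpinb3a probe read 57.3 with IMQ and 26.8 without, 1.36-fold, and the mean of both probes gave a log2 difference of 1.13, below those of Sprr2d and Sprr2e. Sprr2d and Sprr2e, cross-linked precursors of the cornified envelope, were 3.23-fold and 2.87-fold higher.

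Sprr2d read 9432 with IMQ and 3259 without in IL-17A skin and 1452 and 1049.7 in GFP skin. Sprr2e read 2027 and 735 in IL-17A skin and 265 and 155 in GFP skin. Sprr2f (533 with IMQ and 222 without) and Sprr2i (163 and 49.1) were 2.20-fold and 2.06-fold higher. In all 4 the array with both treatments was highest, and Sprr2d and Sprr2e also differed in GFP skin, by 0.62 and 0.72 on the log2 scale. The Sprr2 and Serpinb3 families hold near-identical copies, so each value is a probe signal that may include a relative's transcript.

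Of 30 measured epidermal hyperplasia and stress genes, those 5 were past 2-fold, 0 were on the lower side, 27 lay above 0 and the median was 0.46. Of all genes, 0.173% were higher by 2-fold and 0.0826% lower. The connexins Gjb6 (1523 with IMQ and 931 without) and Gjb2 (3716 and 2564), which form gap junctions between keratinocytes, were 1.73-fold and 1.61-fold higher. In GFP skin their log2 differences were 0.90 and 1.28. The stress keratins differed less: Krt16 read 19454 with IMQ and 15273 without, Krt6b 15672 and 12855 and Krt17 27269.5 and 26337, log2 differences of 0.49, 0.48 and 0.19. Involucrin, gene Ivl, an early envelope protein, stood at 6008 with IMQ and 7073 without.

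Rptn, repetin, a calcium-binding protein of the cornified envelope, was 2.16-fold higher at 5181 with IMQ and 2586 without, and 2.48-fold by its second probe. It was the single gene past 2-fold among 34 cornified envelope and barrier genes, whose median was 0.04, with 13 of 34 below 0. By 2-fold, 0.173% of all genes were higher and 0.0826% lower. Next came the late envelope genes Lce3f, Lce3a and Lce3e at 0.79, 0.75 and 0.75, another family of close copies. The lowest was Krt77, a keratin of the upper epidermis, at 4108 with IMQ and 6249 without. Spinous, basal and cell division genes had medians of 0.09, 0.04 and 0.05, with 0 of 15, 0 of 10 and 0 of 23 apart by 1.5-fold. Over all genes 1.02% were higher and 0.223% lower by 1.5-fold, so these counts are near the share.

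Serpinb12, another clade B serpin, was 2.47-fold higher at 821 with IMQ and 319 without, against 336 and 367 in GFP skin. Its dim second probe was 1.22-fold higher, and the mean of its probes gave a log2 difference of 0.79. Cstdc4, a stefin-type cystatin gene with close relatives, read 453 and 198 in IL-17A skin and 25.2 and 24.96 in GFP skin. Slc7a11, the cystine transporter that feeds glutathione synthesis, read 163 and 50.6 in IL-17A skin and 20.1 and 18.8 in GFP skin. It was 2.03-fold higher, and 0.77 on the log2 scale as the mean of its probes. Serpinb12 differs from Cstdc4 and Slc7a11 in that its GFP signals were as high as in IL-17A skin without IMQ.

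**Figure D2:**
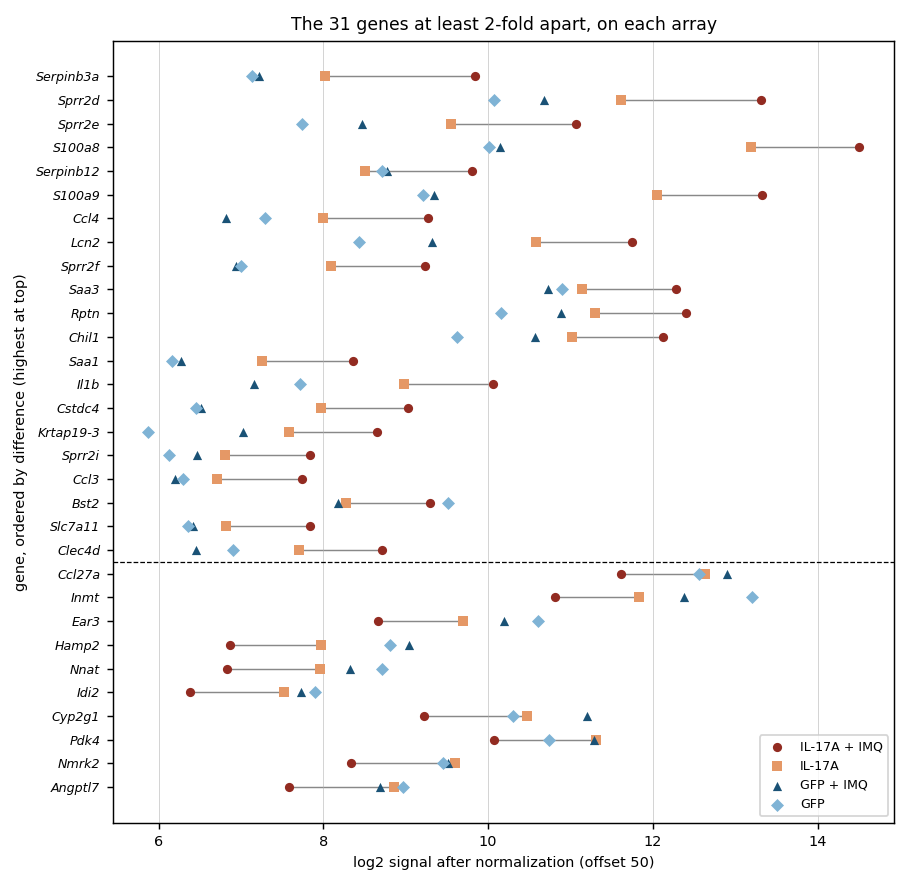
Normalized log2 signal of the 31 genes past 2-fold in IL-17A skin on each of the 4 arrays. In 20 of 21 higher genes the array with IL-17A and IMQ has the highest signal of the 4, the exception being Bst2, and in 10 of 10 lower genes it has the lowest. Part of this order is fixed, since the genes were chosen by the difference between the 2 arrays of IL-17A skin.

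Il1b, Ccl4 and Ccl3, mediators that myeloid cells make, were past 2-fold in IL-17A skin. Il1b, the precursor of interleukin 1 beta, read 983 with IMQ and 474 without in IL-17A skin, a 2.11-fold difference, against 72.8 and 153 in GFP skin. Ccl4, a chemokine of activated macrophages, was 2.42-fold higher at 545 and 201, against 44.9 and 96.6 in GFP skin. Ccl3, a related chemokine, was 2.04-fold higher at 147 and 41.5, against 8.85, below the limit, and 15.42 in GFP skin. In GFP skin all 3 were lower with IMQ, at -0.56, -0.47 and -0.10 on the log2 scale. A second Ccl4 probe was 1.52-fold higher in IL-17A skin, and the mean of its probes gave 0.94 on the log2 scale.

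These 3 were the members past 2-fold on the higher side among 27 inflammatory cytokine and chemokine genes, and Ccl27a was the 1 on the lower. The shares over all genes were 0.173% and 0.0826%. The median of the list was 0.11, and 10 of 27 lay below 0. Ccl7, a monocyte chemokine, stood at 767 with IMQ and 488 without, and Ccl24, an eosinophil chemokine, at 27.9 and 72.3. Of 11 inflammasome genes, which process the Il1b product, Il1b alone was past 1.5-fold, where 1.02% of all genes were on the higher side. Nlrp3 was not above the limit.

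Clec4d, a C-type lectin of neutrophils and monocytes, was 2.02-fold higher at 351 with IMQ and 153 without, against 21.7 and 58.5 in GFP skin. Of 23 neutrophil genes, 3 of which (S100a8, S100a9 and Lcn2) are also IL-17-responsive genes above, 4 were past 2-fold and 0 were on the lower side, with a median of 0.38. Over all genes 0.173% were past 2-fold on the higher side and 0.0826% on the lower. The receptors Fpr2 (415 with IMQ and 232 without) and Cxcr2 (189 and 128) differed by 0.78 and 0.47 on the log2 scale, and Retnlg, a resistin-like gene, by 0.78 (444 and 250.3). Granule genes were dim: Elane read 27.3 with IMQ and 26.8 without, Prtn3 88.9 and 94.0 and Mpo 6.61, below the limit, and 15.02, while Ctsg, Ngp and Mmp8 were not above the limit. The summed signal of the list was 40802 with IMQ and 20787 without in IL-17A skin, most of it from S100a8 and S100a9, against 4204 and 5499 in GFP skin. A change in the number of cells of a type and a change in RNA per cell cannot be told apart in such pools. The part of neutrophils in the S100a8, S100a9 and Lcn2 signals was not tested.

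Of 11 mast cell genes, 0 were past 2-fold, 8 lay above 0 and the median was 0.33. Hdc, the histamine-forming enzyme that neutrophils also make, read 1198 with IMQ and 805 without, and the mast cell protease Mcpt4 911 and 601. Macrophage and fibroblast genes were close to level, with medians of -0.002 over 23 and 0.16 over 24 genes. One macrophage gene was past 1.5-fold, the lipopolysaccharide co-receptor Cd14 at 534 with IMQ and 289 without, and 0 fibroblast genes were. By 1.5-fold, 1.02% of all genes were higher and 0.223% lower. In GFP skin both lists were lower with IMQ in every member measured, 23 of 23 and 24 of 24, with medians of -0.62 and -0.35. C1qa, a complement subunit made by resident macrophages, read 647 and 785 in IL-17A skin with and without IMQ, and 1025 and 2385 in GFP skin.

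Antigen presentation and T cell genes lay slightly below 0. All 10 measured MHC class II genes had negative differences, from -0.43 for H2-Eb1 to -0.01 for H2-Aa, with a median of -0.21, and 0 reached 1.5-fold. H2-Ab1, a class II chain, read 3556 with IMQ and 5018 without. Cd207, the Langerhans cell lectin langerin, read 232 with IMQ and 411 without, a log2 difference of -0.57. It was the lowest of 16 dendritic and Langerhans cell genes, whose median was -0.04. Of these 16, 7 lay above 0, 9 below, and 0 were apart by 1.5-fold. Of 14 T and NK cell genes 9 were below 0, with a median of -0.13, and Cd3g, a subunit of the T cell receptor complex, read 88.8 and 177. Of 5 red blood cell genes 4 were lower with IMQ in both skins, with medians of -0.36 in IL-17A skin and -0.37 in GFP skin: the globin Hba-a1 read 2847 and 4208 in IL-17A skin and 2850.3 and 4689 in GFP skin. The part of blood content in the differences above was not tested.

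Type I interferon genes, a classical output of Toll-like receptor 7, were modestly higher with IMQ in IL-17A skin and lower in GFP skin. Bst2, tetherin, which holds virus particles at the cell surface, was the single one past 2-fold, where 0.173% of all genes were higher. It read 559.7 with IMQ and 262 without in IL-17A skin, against 207 and 689 in GFP skin. Its log2 difference was 1.02 in IL-17A skin and -1.33 in GFP skin. Oasl2, an oligoadenylate synthetase-like gene, read 800.4 and 489.7 in IL-17A skin and 482 and 1200.0 in GFP skin. Rsad2, the antiviral gene viperin, read 289.9 and 176 in IL-17A skin and 172 and 438 in GFP skin. In these 3 genes the highest of the 4 signals was in GFP skin without IMQ. Irf7, the regulator that carries the Toll-like receptor 7 signal, read 382 and 230.5 in IL-17A skin and 211 and 314 in GFP skin, so that its highest signal was on the array with both treatments.

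Of 28 interferon genes 23 lay above 0 in IL-17A skin, with a median of 0.23 and 5 higher by 1.5-fold, where 1.02% of all genes were. In GFP skin 25 of 28 lay below 0, with a median of -0.44 and 12 lower by 1.5-fold, where 2.16% of all genes were. The chemokines Cxcl9 and Cxcl10, which answer to interferon gamma as well, stood at -0.21 and -0.24 in IL-17A skin, Cxcl10 being below the limit with IMQ. Members of the Toll-like receptor 7 pathway had a median of 0.09, with Cd14 and Irf7 the 2 of 21 past 1.5-fold. Myd88 read 2618 with IMQ and 2799 without. Of plasmacytoid dendritic cell markers, Siglech, Ccr9, Klk1 and Spib were not above the limit, and of 8 measured members Bst2 and Irf7 alone were past 1.5-fold.

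**Figure D3:**
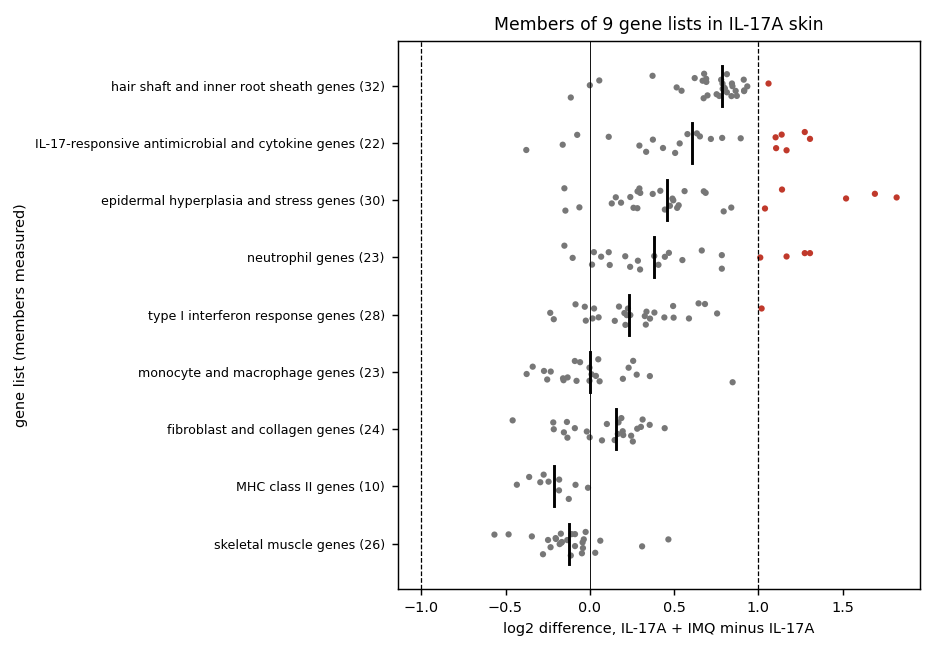
Log2 differences (IL-17A with IMQ minus IL-17A without IMQ) of the measured members of selected gene lists, 1 point per gene, with list medians and lines at 2-fold. Hair genes cluster around 0.78, the IL-17-responsive, hyperplasia and neutrophil lists spread upward past 1, and MHC class II genes lie below 0.

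Hair genes lay close together. Of 32 measured hair shaft and inner root sheath genes, 26 were higher with IMQ by 1.5-fold and 0 lower, but 1, the Krtap19-3 probe, passed 2-fold. Over all genes 1.02% were higher by 1.5-fold and 0.223% lower, and 0.173% were higher by 2-fold. The median of the 32 was 0.78 and their quartiles 0.67 and 0.84. With all keratin-associated protein genes added, 44 of 56 were higher by 1.5-fold, which is 35.8% of the 123 genes past that threshold. Krt27, an inner root sheath keratin, read 8316 with IMQ and 5177 without in IL-17A skin, against 2149 and 2.86 in GFP skin. S100a3, a calcium-binding protein of the hair cuticle, read 2605 and 1452 in IL-17A skin and 712 and 2.69 in GFP skin. Both had the same order of arrays, with IL-17A and IMQ highest, and neither was above the limit in GFP skin without IMQ.

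The summed signal of the 32 genes was 48645 with IMQ and 29696 without in IL-17A skin, and 12227 and 246 in GFP skin. Krt75, a keratin of the companion layer, was level at 98.5 with IMQ and 105 without. Regulators of the growth phase had a median of 0.08, and 0 of 20 were apart by 1.5-fold, near the share over all genes. Shh, a signal of the hair matrix, read 38.0 with IMQ and 20.7 without, and Dlx3, a transcription factor of the shaft, 637 and 511. Pigment cell genes lay on the same side, with 8 of 9 above 0 and a median of 0.34, or 0.26 with genes below the limit set at it. Tyrp1, an enzyme of melanin synthesis, read 278 with IMQ and 176 without. Of its other probes, which were dim, one was 1.02-fold lower and one 1.11-fold higher. The share of follicles in the growth phase in each pool was not measured.

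The 10 lower genes shared no list, and 3 of them were on any list. Ccl27a, a keratinocyte chemokine that draws skin-homing T cells, read 2959 with IMQ and 6429 without in IL-17A skin, against 7040.0 and 6500.2 in GFP skin. It was 2.03-fold lower, 1.87-fold by its second probe, and it missed the threshold under 4 of 9 alternatives. Pdk4, the kinase that turns off pyruvate dehydrogenase, read 991 and 2630.3 in IL-17A skin and 2225 and 1733 in GFP skin. Cyp2g1, a cytochrome P450 gene, read 526 and 1428 in IL-17A skin and 2092 and 1263 in GFP skin, and its second probe was 2.07-fold lower. In these 3 genes the array with both treatments was the lowest, while GFP skin with IMQ was above GFP skin without.

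Angptl7, an angiopoietin-like secreted protein, was 2.41-fold lower at 125 with IMQ and 429 without, and 1.59-fold by its second probe. Nmrk2, a kinase of NAD synthesis that is high in muscle, was 2.40-fold lower at 253 and 762. Of its other probes, one was 1.84-fold lower and a dim one 1.07-fold higher. Hamp2, a hepcidin gene, read 51.2 with IMQ and 197 without in IL-17A skin and 418 and 398 in GFP skin. Nnat, neuronatin, an imprinted gene, read 47.9 and 195, and its other probes were 1.94-fold and 1.89-fold lower. Idi2, an isopentenyl diphosphate isomerase gene, read 18.7 and 125 and was the 1 of 18 cholesterol synthesis genes apart by 1.5-fold. Of all genes, 0.223% were lower and 1.02% higher by that much.

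Inmt, an amine N-methyltransferase, read 1694 with IMQ and 3752 without in IL-17A skin and 4892 and 9933 in GFP skin, and was the 1 of the 10 that was lower by 1.5-fold in GFP skin too, at -0.83. Ear3, an eosinophil-associated ribonuclease probe with close relatives, read 339 and 817, and its dim second probe was 1.15-fold lower. When the probes of each gene were averaged, Ccl27a, Ear3, Idi2, Nmrk2 and Angptl7 came under 2-fold, which left 5 of the 10. Of 26 skeletal muscle genes, which could bear on Nmrk2 and Pdk4, 22 were below 0 with a median of -0.12, and 0 were apart by 1.5-fold. Their part in those differences was not tested.

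Just inside the threshold on the higher side were Clec4d, Slc7a11 and Bst2 at 1.01, 1.02 and 1.02, and just outside it Krtap21-1, Krtap19-1 and Krtap6-5 at 0.97, 0.96 and 0.95. On the lower side Ccl27a, Inmt and Ear3 were inside at -1.02, -1.02 and -1.03. The betacellulin gene Btc, the carbonic anhydrase gene Car14 and Cyp17a1, a steroid-forming P450, were outside at -0.90, -0.88 and -0.81. Of 6 higher and 8 lower genes with a further probe above the limit, every next-brightest probe had the same sign, and 2 of 6 and 6 of 8 were apart by 1.5-fold.

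The IMQ differences of IL-17A skin and GFP skin, which share no array, overlapped mainly in hair genes. Across 11509 genes measured in both, the differences had a Pearson correlation of 0.128 and a Spearman correlation of 0.013, and without hair genes the Pearson value was 0.012. The points are genes of the same 4 arrays, not replicates. Krtap19-3 was the 1 gene past 2-fold on the higher side in both skins, although its GFP signal without IMQ was below the limit and at that limit the fold there is 1.70, under 2-fold. Of the 53 genes past 2-fold on the higher side in GFP skin, 52 were above 0 in IL-17A skin and 48 were higher by 1.5-fold. Their median in IL-17A skin was 0.795, and 25 members of the hair shaft and inner root sheath list were among them. Of the 36 on the lower side in GFP skin, 15 were below 0 in IL-17A skin, with a median of 0.038. On the lower side 0 genes passed 2-fold in both skins. With 0.0826% of genes past it in IL-17A skin and 0.297% in GFP skin, this 0 does not set the skins apart. Bst2 passed 2-fold in opposite directions. At 1.5-fold 62 genes were higher in both, which is 50.4% of those in IL-17A skin and 31.5% of those in GFP skin, and 41 of the 62 were hair genes. Over all genes, 1.02% were higher by 1.5-fold in IL-17A skin and 1.62% in GFP skin. The 21 higher genes had a median difference of 0.086 in GFP skin, where 14 of 21 were above 0, and the 10 lower genes a median of -0.055, with 5 of 10 below 0.

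Among the largest gaps between the skins were hair genes. Krt27, Krt71 and Krtap7-1 differed with IMQ by 0.81, 0.78 and 0.87 in IL-17A skin and by 5.18, 4.93 and 4.34 in GFP skin. Without IMQ they were below the limit in GFP skin, so the last 3 values depend on the offset and are no measured folds. Fosb, an immediate early transcription factor, read 216 with IMQ and 137 without in IL-17A skin, and 27.1 and 251.04 in GFP skin. Lyve1, a receptor of lymphatic vessels and resident macrophages, read 432 and 452 in IL-17A skin and 403 and 1834 in GFP skin. Lyve1 was highest in GFP skin without IMQ, and Fosb was lowest in GFP skin with IMQ.

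**Figure D4:**
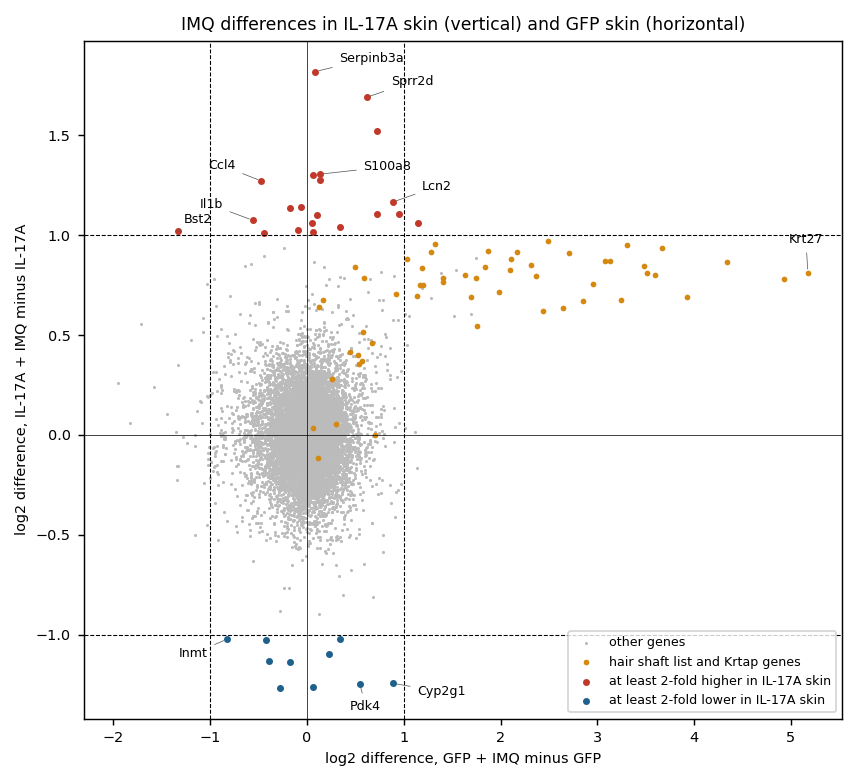
Log2 difference with IMQ minus without in IL-17A skin and in GFP skin, 1 point per gene, with lines at 2-fold. The genes past 2-fold in IL-17A skin lie mostly near 0 for GFP skin, Bst2 lies at -1.33 there, and hair genes form a band near 0.78 that reaches 5.18 in GFP skin.

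List medians in IL-17A skin ran from -0.36 for red blood cell genes to 0.78 for hair genes. Autophagy genes (-0.03 over 32), circadian clock genes (-0.02 over 13) and NADPH oxidase and extracellular trap genes (0.01 over 7) were near 0. Immediate early and heat shock genes, a class that handling of tissue can move, had a median of 0.22, with 19 of 22 above 0 and 0 apart by 1.5-fold, and Fos read 892 with IMQ and 635 without. Mitochondrial complex I, which imiquimod is known to inhibit, had 27 of 35 genes below 0 and a median of -0.10, the lowest being Ndufs3 at -0.40. In GFP skin the 35 genes were level with IMQ, with a median of 0.009, 18 above 0 and 17 below. A link between these RNA values and that inhibition was not tested. Sebaceous and epidermal lipid genes had medians of -0.03 in IL-17A skin and 0.33 in GFP skin.

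**Figure D5:**
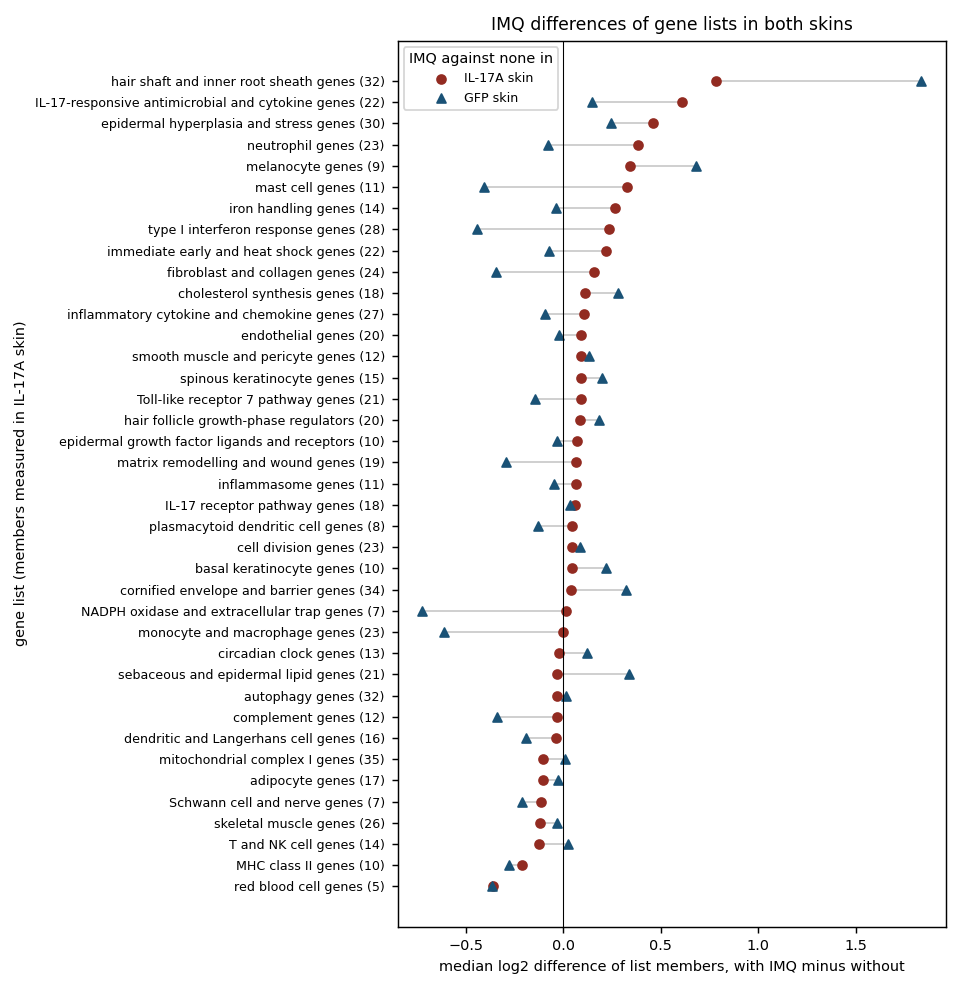
Median log2 difference with IMQ minus without of each gene list, in IL-17A skin and in GFP skin, each from 1 pair of pooled arrays. The B and plasma cell list, with 2 members measured, is not drawn. IL-17A skin spans -0.36 to 0.78, and mast cell, interferon and fibroblast genes lie above 0 in IL-17A skin and below 0 in GFP skin.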

How the data were processed

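RNA from mouse skin was read on 4 Illumina bead arrays, 1 pool of 6 mice each. The deposited table of unnormalized values holds 1 linear intensity for each of 45281 probes; 32.3% to 33.7% of an array's values are below 0, so a background had been subtracted, by a method not given in the sources used here. The other deposited table holds log2 values normalized by the authors, which rank probes almost as the intensities do (Spearman 0.9997 to 0.9999); that method was not given either.

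Intensities were corrected by normexp with an offset of 50 in limma 3.58.1 (R 4.3.3), quantile normalized over the 4 arrays and turned to log2. Values below 0, mirrored at 0, served as an array's noise, and its detection limit left a share of 0.01 of that noise above it. Symbols came from the platform annotation (34885 probes with 1 symbol, 18 with several, 10378 with none), and 34807 of the 34885 were found in RefSeq. Each gene was read from the brightest of its probes above the limit. A gene counted as higher or lower at a log2 difference of at least 1 with its brighter array above the limit. With 1 array a group there was no test, and the number of arrays limits the precision. The procedure was tested on simulated data. Python 3.11.15, numpy 2.4.6, pandas 2.3.3 and matplotlib 3.10.9 were used. Alternatives were other offsets, scalings, thresholds, detection rules and probe summaries, and the authors' values.

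The comparison, the 40 gene lists and the rule for named genes were chosen with earlier results of these data known. The rule took up to 25 genes a side past 2-fold, list members past 2-fold and the 4 largest of each list, Il17a and Tlr7, the 10 largest gaps a side between IL-17A and GFP skin, and the 3 genes nearest the threshold on each side. Other list members named, such as granule genes, keratins and chemokines, were chosen after their values were seen.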

Additional observations from a re-analysis of the deposited data

Results flagged for a closer look

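The IMQ difference had opposite signs in the 2 skins for 7 of 21 higher and 5 of 10 lower genes, against 49.5% of all 11509 genes measured in both, so the counts themselves do not set these genes apart. With 1 pool a group, the difference between the skins was not tested for any gene. For Sprr2f, Nmrk2 and Ccl3 the GFP difference was within 0.10 of 0, and Ccl3 was below the limit in GFP skin with IMQ. The gap, IL-17A skin minus GFP skin on the log2 scale, was 2.35 for Bst2, 1.74 for Ccl4, 1.64 for Il1b, 1.46 for Clec4d, 1.31 for Saa3, 1.21 for Sprr2f and 1.12 for Ccl3. Among lower genes it was -2.13 for Cyp2g1, -1.80 for Pdk4, -1.36 for Ccl27a, -1.32 for Nmrk2 and -1.32 for Hamp2. Over all genes, 9 were higher in IL-17A skin and lower in GFP skin by 1.5-fold, and 3 the other way. Beside Bst2 and Cyp2g1 these were Oasl2 (1.78), Fpr2 (1.74), Oas1g (1.67), Rsad2 (1.59), Ccl7 (1.49), Cd14 (1.48), Fcgr4 (1.30), Pik3ap1 (1.19), Cyp17a1 (-1.49) and Hoxa5 (-1.24). The list medians of interferon genes and of mast cell genes had gaps of 0.68 and 0.73.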

How the results depend on the processing

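Against 21 genes higher and 10 lower, an offset of 16 gave 33 and 15, no further background correction 115 and 82, and the authors' normalized values 69 and 42. A 1.5-fold threshold gave 123 and 27, a 3-fold threshold 2 and 0, and averaging all probes of each gene 18 and 5. All 21 higher genes were among those called with both background alternatives and the authors' values, and 17 of them after averaging probes. Median scaling gave 21 and 9, quantile normalization over the 2 arrays 21 and 8, detection on both arrays and a noise share of 0.05 both 21 and 10, and leaving out hair genes 20 and 10. The thresholds move the counts by construction, and a smaller offset shrinks the differences of dim genes less. How much of the other shifts this accounts for was not tested. No gene of the 31 changed sign in these settings, and of the list medians those of macrophage, plasmacytoid dendritic cell, B cell and complement genes did, all near 0. The medians ran from 0.77 to 0.86 for hair genes, 0.61 to 0.82 for IL-17-responsive genes, 0.38 to 0.67 for neutrophil genes and 0.23 to 0.38 for interferon genes. No array could be left out, since each group has 1. No paired analysis was possible because each group has 1 array and the labels give no replicate numbers.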

Other observations

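Genes between 1.5-fold and 2-fold outside the lists, chosen here after their values were seen, included myeloid mediators and secreted and lipid genes of the epidermis. Acod1, the itaconate-forming enzyme of activated myeloid cells, was 1.91-fold higher with IMQ in IL-17A skin (155 with IMQ and 53.5 without), and Osm, the cytokine oncostatin M, 1.81-fold (89.9 and 22.5). Wfdc2, a secreted gene with whey acidic protein domains, was 1.82-fold higher, Degs2, a ceramide-forming desaturase, 1.76-fold, and Padi1, a peptidylarginine deiminase of the epidermis, 1.75-fold. Degs2 and Padi1 also differed in GFP skin, by 0.77 and 1.39 on the log2 scale, while Osm and Acod1 stood at -0.58 and -0.24 there. On the lower side, Skint9, a gene of the epidermal Skint family, was 1.75-fold lower (875 with IMQ and 1696 without), and Txnip, the thioredoxin-binding protein, 1.54-fold (5339.9 and 9098).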
